A study of Bos taurus with 6 samples.

Results

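Collagen chain genes encode the chains from which every collagen molecule is built. They were taken from the deposited expression table as the rows whose gene name was COL, a number, A and a number, such as COL1A1, and 30 of the 17663 genes of the table met this rule. All 30 are listed by class: 10 fibrillar chains, 3 chains of basement membrane collagen, 5 FACIT chains (fibril-associated collagens with interrupted triple helices), 5 beaded filament chains, 2 transmembrane chains, 2 short-chain network chains, 2 multiplexin chains and COL7A1. The other 15 chains of the class lists were not analysed here: COL24A1, COL4A4, COL4A5, COL4A6, COL9A1, COL9A3, COL19A1, COL21A1, COL22A1, COL6A4, COL23A1, COL25A1, COL10A1, COL26A1 and COL28A1.

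Expression was measured by poly(A) RNA sequencing in bovine fetal fibroblasts (bEFs), primary cultures of the cells that make connective tissue. The transgenic group (FT) came from 3 fetuses carrying fat-1, a gene of Caenorhabditis elegans whose enzyme turns n-6 into n-3 polyunsaturated fatty acids, and the control group (WT) from 3 wild-type fetuses of Luxi cattle, all aged 50-60 days. Cells were grown from the soft tissue left after dissection, with no skeleton, viscera, head or limbs, and each fetus gave 1 library. The promoter of the transgene, the way the transgenic fetuses were made and their breed are not given in the sources used here. Total counts were 63366834, 48167642 and 54204446 in FT_1, FT_2 and FT_3 and 69777641, 51310741 and 54271927 in WT_1, WT_2 and WT_3. Whether the fetuses shared parents is not stated, and p-values measure the spread between these 6 samples.

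Every collagen is a trimer of chains that wind around each other into a triple helix. Fibrillar collagens pack into the banded fibrils that give skin and tendon their strength, FACIT collagens sit on the surface of those fibrils, type VI collagen forms beaded filaments between fibrils and cells, and type IV collagen forms the sheet on which basement membranes are built. Fibroblasts are the main source of the fibrillar and beaded chains, whereas transmembrane collagen XVII is known from the basal cells of the epidermis.

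FT_1 stood apart from the other 2 FT libraries, so the collagen chains are described with and without it. Gene levels varied beyond counting noise by 56.9% from FT_1 to FT_2 and by 57.6% from FT_1 to FT_3 (edgeR's biological coefficient of variation for a pair of libraries). For FT_2 with FT_3 the same measure was 8.23%, and the WT pairs lay at 9.99-13.4%. In FT_1 the summed level of the fibroblast markers was low and that of the epithelial markers was high. The fibroblast gene VIM, which encodes vimentin, had an FPKM (fragments scaled by gene length and library size) of 1244, 3850.2 and 4171 in FT_1, FT_2 and FT_3 and of 7891, 8178 and 7312 in WT_1, WT_2 and WT_3, the order used for all values that follow. The basal keratin gene KRT5 had 172, 2.57 and 1.63 in FT and 0 in every WT library. All 10 fibroblast markers had counts in all 6 libraries, with a summed FPKM of 4580.0, 11821 and 11615 in FT and 12549, 12358 and 11829 in WT, and VIM was the most abundant by the mean over libraries, though DCN, with 1803, 4092 and 3769 in FT and 2299, 2054 and 2227 in WT, exceeded it in FT_1 and FT_2. Their sum was lowest in FT_1, but not every marker was: PDGFRA (218, 166 and 141 in FT, 93.5, 87.0 and 99.7 in WT) and THY1 (413, 358 and 342 in FT, 367, 330.0 and 368 in WT) were highest there, and FBN1 (159, 155 and 166 in FT, 294, 249 and 300.3 in WT) was level with FT_2 and FT_3. In FT_2 and FT_3, PDGFRA, DCN, LUM, PDGFRB and TWIST2 were above all WT libraries, while VIM, FBN1 and TWIST1 were below them. TWIST1 had 23.2, 35.7 and 34.5 in FT and 40.8, 40.5 and 38.6 in WT. By the edgeR test, 1 of the 10 was higher and 1 lower with 6 libraries (20.1% and 18.9% of all tested genes), and 6 were higher and 2 lower without FT_1 (30.6% and 31.5%). Apart from VIM, these markers are named after their values were seen.

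Collagen transcripts took a smaller share of FT_1 than of any other library. The 30 chains held 2.79%, 5.45% and 5.53% of all counts in FT and 4.79%, 4.35% and 5.01% in WT. Their summed FPKM was 5052, 10446 and 10590.0 in FT and 9148, 8353 and 9559.9 in WT. FT_2 and FT_3 lay above all WT libraries on both scales and FT_1 lay below them, so the groups overlapped. In these bulk cultures, fewer cells of a type and less RNA per cell cannot be told apart.

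**Figure D1:**
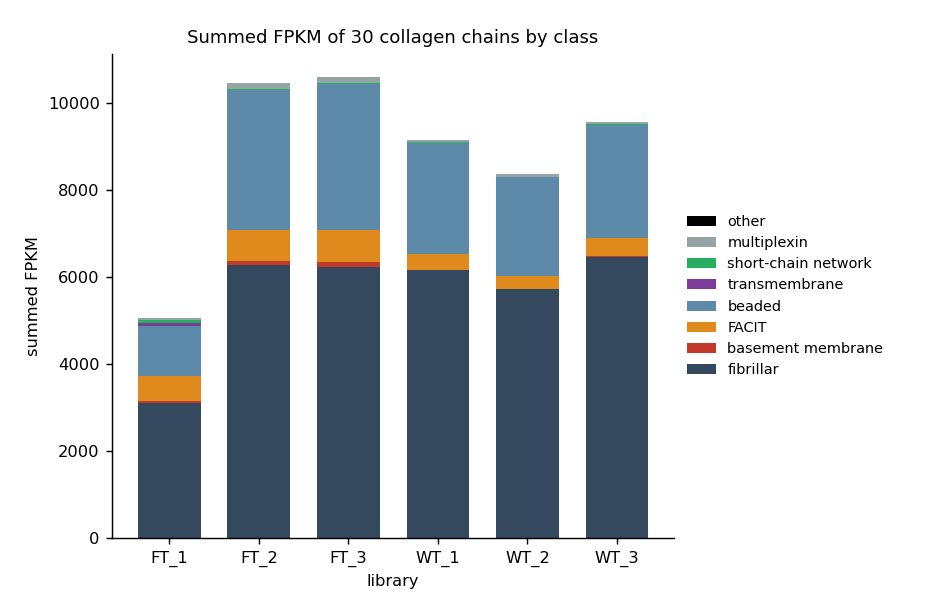
Summed FPKM of the 30 collagen chains in each library (bars, starting at 0), divided by collagen class. FT_1 reaches 5052 and the other 5 libraries lie between 8353 and 10590.0, and the FACIT part is larger in the 3 FT libraries than in the 3 WT libraries.

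COL11A1, COL5A1 and COL5A2 of the fibrils, COL12A1 and COL16A1 on their surface, COL4A1 and COL4A2 of basement membranes, COL7A1 and COL8A2 were higher in all FT libraries, FT_1 included. The abundant chains of collagen types I, III and VI did not pass with 6 libraries. Genes were compared with edgeR's quasi-likelihood test on the counts, with p adjusted by the Benjamini-Hochberg method over all 13482 genes that had enough counts, and a gene passed at an adjusted p under 0.05 (SE: standard error of the log2 fold change, FT over WT). Of the 30 chains, 25 were tested, and the filter left out COL2A1, COL4A3, COL9A2, COL11A2 and COL20A1, which had at most 35 counts in any library. FT cells had 10 chains higher than WT cells, where 20.1% of all tested genes were higher. They were COL5A1, COL5A2, COL11A1, COL4A1, COL4A2, COL12A1, COL16A1, COL8A2, COL7A1 and COL17A1. Of these COL17A1, with 4, 0 and 0 counts in WT, met the count filter through FT alone and did not pass without that filter. No chain passed as lower by edgeR, where 18.9% of all tested genes did, and 1 chain had an unadjusted p under 0.05 in that direction. DESeq2 gave 2 chains as lower, COL9A2 and COL13A1. Both were below the FPKM minimum of the limma test, which gave 0 lower among the 23 chains it held. The median log2 fold change was 0.61 for the 25 tested chains and 0.03 over all genes of the test, and the first is also 0.61 with COL18A1, which had no count in WT, at its lower bound, since that bound lies above the median.

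Without FT_1, 26 chains were tested, 19 passed as higher against 30.6% of 13765 genes, and 3 passed as lower against 31.5%. The 3 were COL6A3, COL9A2 and COL13A1, of which COL9A2 and COL13A1 are named after their values were seen. COL9A2 and COL13A1 met the count filter through WT alone, so their p-values add nothing to the counts. All 10 chains that passed with 6 libraries were among the 19. Of the 19, COL17A1 and COL18A1 met the count filter through FT alone. The median log2 fold change of the tested chains was 0.72 without FT_1, against -0.02 for all tested genes. On the FPKM columns, limma on log2(FPKM + 1) passed 9 of 23 chains as higher (15.0% of 12247 genes) and 0 as lower (29.2%), with 1 chain lower at an unadjusted p under 0.05. Those 9 were the 10 of edgeR without COL17A1. All 3 FT values lay above all 3 WT values in 11 of the 25 tested chains, against 21.8% of tested genes, and below them in 5, against 36.9%. The 11 include COL17A1 and COL18A1, which met the count filter through FT alone, and the 5 include COL13A1, which met it through WT alone. Scaling shifted the whole table: over all genes of each test the median was -0.12 with total counts alone and -0.12 with limma on FPKM. Higher genes were 51.6% of all calls with edgeR's TMM scaling and 37.6% with total counts alone (2049 higher and 3394 lower), where 10 chains were higher and COL13A1 was lower.

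**Figure D2:**
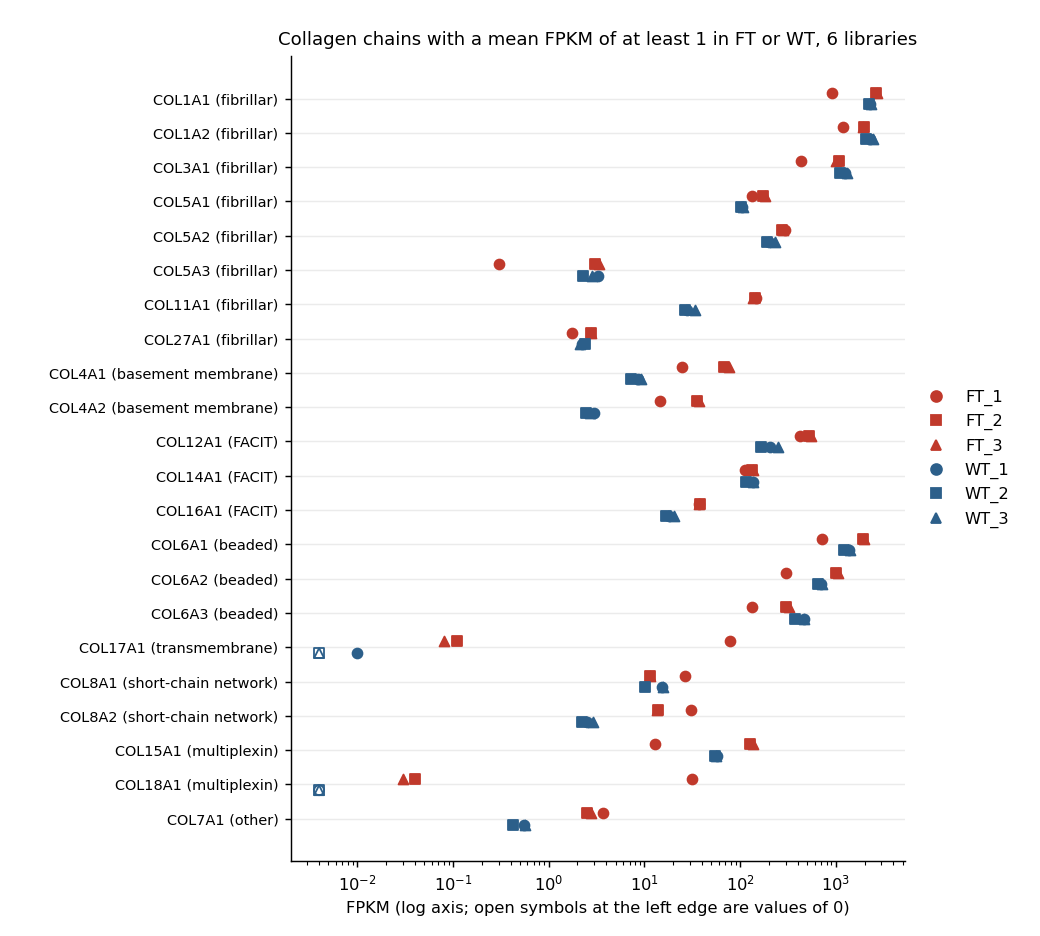
FPKM of the 22 collagen chains with a mean of at least 1 in FT or WT (log axis, 1 symbol for each library, open symbols for values of 0). FT_1 (red circles) lies away from FT_2 and FT_3 in many chains, while FT_2 and FT_3 nearly coincide, and COL17A1 and COL18A1 reach 79.4 and 31.6 in FT_1 alone.

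Among the 22 chains with a mean FPKM of at least 1, FT_1 differed over 1.5-fold from the mean of FT_2 and FT_3 in 15, being lower in 11 and higher in 4. The 4 higher ones were COL8A1, COL8A2, COL17A1 and COL18A1. The WT values spanned over 1.5-fold in 2 of the 20 chains with counts in every WT library, COL8A1 and COL12A1. FT_2 and FT_3 differed by at most 1.12-fold in the chains with at least 1 FPKM in both.

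The fibrillar class held the most abundant chains and split into chains that rose and chains that did not pass. It had 3 of 8 tested chains higher and 0 lower with 6 libraries, where 20.1% and 18.9% of all tested genes were. No chain of the class had an unadjusted p under 0.05 as lower by edgeR, DESeq2 or limma. Without FT_1 the class had 6 higher and 0 lower, where 30.6% and 31.5% of all tested genes were. The class made up 61.4%, 60.0% and 58.9% of the summed collagen FPKM in FT and 67.2%, 68.5% and 67.6% in WT, a smaller share in every FT library.

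COL11A1, a chain of type XI collagen that controls fibril width and is best known from cartilage, had the largest fibrillar difference. Its FPKM was 147, 143 and 136 in FT and 28.2, 26.9 and 33.9 in WT. All FT values, FT_1 included, lay far above all WT values, and FT_1 was the highest. It rose in FT (log2 fold change 2.42, SE 0.12, adjusted p = 5.23e-04), and without FT_1 the log2 fold change was 2.40, SE 0.10, adjusted p = 7.60e-08. Cartilage markers were low beside it: the 9 markers summed to 5.07, 0.40 and 0.49 in FT and 1.32, 1.37 and 1.44 in WT. SOX9, the most abundant of them by mean, had 2.19, 0.17 and 0.24 in FT and 0.15, 0.35 and 0.37 in WT, and none was at 0 in every library. It led through FT_1, and ACAN, named after its values were seen, led in WT (0.03, 0.14 and 0.19 in FT, 0.66, 0.71 and 0.56 in WT) and passed as lower (log2 fold change -2.26, adjusted p = 0.0395). By edgeR with 6 libraries, 0 cartilage markers were higher and 1 of 4 tested was lower (20.1% and 18.9% of all tested genes). The lower count was near the share of all genes. By edgeR 0 were higher at an unadjusted p under 0.05, and DESeq2 gave 0 higher and 1 lower. The test by limma did not hold ACAN. Without FT_1, 0 were higher and 3 of 5 lower (30.6% and 31.5% of all tested genes). Of the 3, CNMD and SOX5, named after their values were seen, met the count filter through WT alone, so their p adds nothing to the counts. COL2A1, the main fibrillar chain of cartilage, had 24 counts in FT_1 and 0 in the other 5 libraries.

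COL5A1 and COL5A2 encode the chains of type V collagen, which starts fibrils and limits their width. COL5A1 had an FPKM of 134, 175 and 181 in FT and 106, 103 and 107 in WT, and COL5A2 had 296, 276 and 282 in FT and 200.4, 192 and 231 in WT. The groups did not overlap in either gene, with FT_1 the lowest FT library for COL5A1 and the highest for COL5A2. COL5A1 rose (log2 fold change 0.79, SE 0.15, adjusted p = 0.00868), as did COL5A2 (log2 fold change 0.61, SE 0.11, adjusted p = 0.00740). Without FT_1 the log2 fold changes were 0.93 and 0.60, with adjusted p = 9.55e-07 and 1.54e-04 from edgeR.

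COL1A1 and COL1A2, the chains of type I collagen, were among the most abundant transcripts of these cells. COL1A1 ranked 9 and 7 among all genes by FPKM in FT_2 and FT_3, 69 in FT_1 and 11, 14 and 13 in WT. Its FPKM was 914, 2611 and 2689 in FT and 2288, 2212 and 2331 in WT. FT_1 was far below all WT libraries and FT_2 and FT_3 were above them. The difference with 6 libraries did not pass (log2 fold change 0.03, SE 0.42, adjusted p = 0.961) and its sign turned, to -0.13 with total counts alone and -0.29 with limma, whereas without FT_1 COL1A1 passed as higher (0.39, SE 0.06, adjusted p = 3.26e-04).

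COL1A2 had an FPKM of 1177, 1975 and 1933 in FT and 2279, 2077 and 2434 in WT, and COL3A1, the single chain of type III collagen in skin and vessel walls, had 433, 1082 and 1006 in FT and 1244, 1106 and 1322 in WT. In both genes every FT value lay below every WT value on the FPKM scale, by a wide margin in FT_1 and a narrow one in FT_2 or FT_3. Neither passed with 6 libraries (log2 fold changes -0.25 and -0.38, adjusted p = 0.447 and 0.438 from edgeR). Without FT_1 the log2 fold changes were closer to none and neither passed (-0.04 and -0.06, adjusted p = 0.651 and 0.543). COL1A1, COL1A2 and COL3A1 together made up 50.0%, 54.3% and 53.1% of the summed collagen FPKM in FT and 63.5%, 64.6% and 63.7% in WT, lower in each FT library than in each WT library.

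COL5A3 and COL27A1 were expressed at a few FPKM. COL5A3, a minor chain of type V collagen, had 0.30, 3.08 and 3.37 in FT and 3.25, 2.27 and 2.83 in WT, and COL27A1 had 1.75, 2.78 and 2.77 in FT and 2.21, 2.38 and 2.12 in WT. FT_1 was the lowest library for both, and the groups overlapped. Neither passed with 6 libraries (log2 fold changes -0.14 and 0.28, adjusted p = 0.903 and 0.311 from edgeR). Both passed as higher without FT_1 (log2 fold changes 0.38 and 0.48, adjusted p = 0.0419 and 0.00149), where the sign of COL5A3 turned.

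The basement membrane chains COL4A1 and COL4A2, which form the ubiquitous type IV collagen, were higher in all FT libraries. COL4A1 had an FPKM of 24.9, 67.4 and 75.7 in FT and 8.58, 7.28 and 9.33 in WT. COL4A2 had 14.5, 35.6 and 37.5 in FT and 2.98, 2.44 and 2.70 in WT. Every FT value was above every WT value for both genes, and FT_1 lay between FT_2 and the WT libraries. Both rose in FT: COL4A1 (log2 fold change 2.90, SE 0.44, adjusted p = 0.00445) and COL4A2 (log2 fold change 3.59, SE 0.40, adjusted p = 0.00182). Without FT_1 the log2 fold changes were 3.26 (SE 0.11, adjusted p = 3.51e-08) and 3.92 (SE 0.09, adjusted p = 7.91e-09). The class held 0.779%, 0.986% and 1.07% of the summed collagen FPKM in FT and 0.126%, 0.116% and 0.126% in WT. COL4A3, a chain of kidney and lung basement membranes, had 8 counts in FT_1, 8 in WT_3 and 0 in the others.

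Endothelial cells and smooth muscle also make type IV collagen, and their markers are given beside it. The 7 endothelial markers summed to 1.08, 0.47 and 0.53 FPKM in FT and 1.56, 1 and 1.20 in WT, with PECAM1 the most abundant by mean at 0.38, 0.09 and 0.10 in FT and 0.76, 0.46 and 0.59 in WT, so these markers were near 0 in both groups. The 6 smooth muscle markers summed to 2483, 3763 and 3624 in FT and 1100.3, 1080 and 1206 in WT, and 4 of the 6 passed as higher with 6 libraries (20.1% of all tested genes) and 6 without FT_1 (30.6%). ACTA2, the most abundant, had 1372, 2421 and 2378 in FT and 549.8, 503 and 627 in WT. The sums were above WT in every FT library, while MYH11 (0.07, 1.58 and 1.46 in FT, 0.15, 0.12 and 0.18 in WT) and RGS5 (0.03, 8.49 and 7.88 in FT, 5.15, 4.21 and 4.96 in WT), named after their values were seen, were below WT in FT_1 and above it in FT_2 and FT_3. Their part in the result was not tested.

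The FACIT class had 2 of 3 tested chains higher with 6 libraries, where 20.1% of all tested genes were. Without FT_1, 3 of 4 were higher and 1, COL9A2, was lower, where 30.6% and 31.5% of all tested genes were. The lower count was near the share of all genes, and COL9A2 met the count filter through WT alone. COL12A1, which coats type I fibrils in tissues under load, had an FPKM of 421, 528 and 546 in FT and 204, 166 and 248 in WT. All FT values were above all WT values, with FT_1 the lowest of FT. COL12A1 rose (log2 fold change 1.44, SE 0.21, adjusted p = 0.00369), and without FT_1 the log2 fold change was 1.55, SE 0.13, adjusted p = 7.33e-06. COL16A1, a FACIT chain of many connective tissues, had 37.0, 38.3 and 37.6 in FT, where all 3 libraries nearly coincided, and 18.2, 16.9 and 20.6 in WT. It rose too (log2 fold change 1.18, SE 0.10, adjusted p = 9.27e-04), with 1.20 and adjusted p = 2.14e-06 without FT_1.

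COL14A1 is a FACIT chain that binds fibrils through decorin. Its FPKM was 112, 132 and 136 in FT and 135, 115 and 137 in WT, and the groups overlapped. It did not pass (log2 fold change 0.13, SE 0.13, adjusted p = 0.448, with the sign turning to -0.02 with total counts alone and -0.03 with limma), and without FT_1 it passed as higher with a log2 fold change of 0.22 (adjusted p = 0.0361). As a share of the summed collagen FPKM, the class held 11.3%, 6.69% and 6.80% in FT and 3.91%, 3.57% and 4.26% in WT. Every FT library was above every WT library, and FT_1 was the highest.

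**Figure D3:**
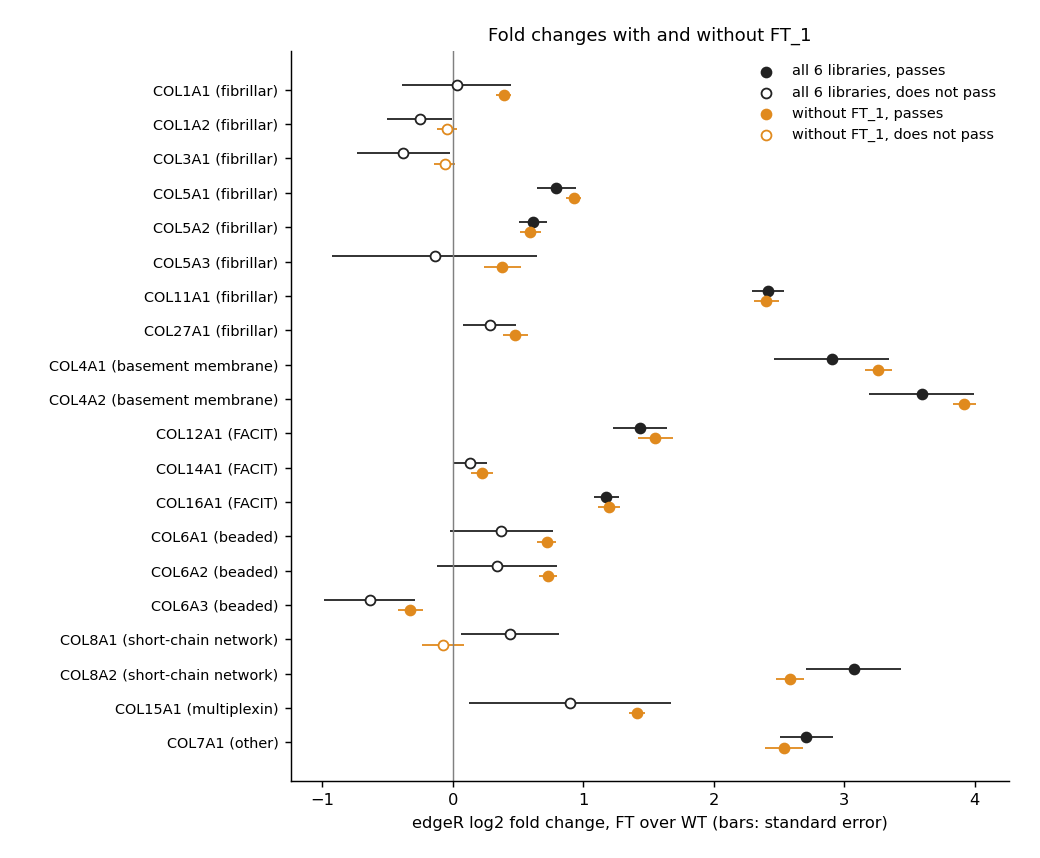
Log2 fold changes of 20 chains from edgeR with all 6 libraries (black) and without FT_1 (orange), FT over WT, with bars for 1 standard error and filled symbols for an adjusted p under 0.05. The standard errors are smaller without FT_1 in all 20, and COL1A1, COL5A3, COL6A1, COL6A2, COL6A3, COL14A1, COL15A1 and COL27A1 are filled only there.

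The beaded filament class passed in neither direction with 6 libraries: 0 of 5 chains were higher or lower by edgeR or DESeq2 and 0 of 4 by limma, which did not hold COL6A6, and at an unadjusted p under 0.05 there was 1, lower, by limma. Of all tested genes, 20.1% were higher and 18.9% lower by edgeR with 6 libraries. Without FT_1, 3 of 5 chains of the class were higher and 1 was lower, where 30.6% and 31.5% of all tested genes were. COL6A1 had an FPKM of 718, 1924 and 1992 in FT and 1374, 1227 and 1412 in WT, and COL6A2 had 301, 997 and 1044 in FT and 707, 648 and 723 in WT. For these chains, which share the core of the type VI filament with COL6A3, FT_1 was below all WT libraries and FT_2 and FT_3 were above them. With 6 libraries the log2 fold changes were 0.37 (SE 0.39, adjusted p = 0.487) and, for COL6A2, 0.34 (SE 0.46, adjusted p = 0.590), which was -0.03 with limma. Without FT_1 they were 0.72 and 0.73, with adjusted p = 2.00e-05 and 1.17e-05.

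COL6A3, the longest of the 3 common chains of type VI collagen, differed from its partners. It had an FPKM of 133, 299 and 322 in FT and 469, 379 and 466 in WT. Every FT value was below every WT value, and FT_1 was the lowest. The difference did not pass with 6 libraries (log2 fold change -0.64, SE 0.35, adjusted p = 0.198) and passed as lower without FT_1 (-0.33, SE 0.10, adjusted p = 0.0146).

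The transmembrane and multiplexin classes each held a chain that was abundant in FT_1 alone. COL17A1, a part of the hemidesmosomes that fix basal epidermal cells to their basement membrane, reached 79.4 FPKM in FT_1, against 0.11 and 0.08 in the other FT libraries and 0.01, 0 and 0 in WT. In counts it had 28695, 32 and 24 in FT and 4, 0 and 0 in WT. FT_1 held nearly all of its reads. FT_2 and FT_3 had more counts than any WT library, at 0.147% and 0.0978% of the FT_1 level in CPM (counts scaled to the total of the library). It passed with 6 libraries at an adjusted p of 0.0467 (log2 fold change 12.70, SE 3.94), a fold whose size rests on FT_1 and on a WT level of 4 counts in all. Without FT_1 the log2 fold change was 4.67 (SE 1.004, adjusted p = 0.00258), and COL17A1 did not pass when any 1 WT library was left out, without the filter on low counts or with limma, while DESeq2 gave it no adjusted p.

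COL18A1, a multiplexin of basement membranes whose end fragment is endostatin, had 10423, 9 and 10 counts in FT and 0 in every WT library. Its FPKM was 31.6 in FT_1 and 0.04 and 0.03 in the other FT libraries. Against the limit that a count of 0 allows (3 counts in a library, counting error only), the level of COL18A1 in CPM was at least 2813-fold higher in FT_1 than in any WT library and at least 3.20-fold and 3.16-fold higher in FT_2 and FT_3. With 6 libraries COL18A1 did not pass in edgeR (adjusted p = 0.117), and without FT_1 it did (adjusted p = 0.00683). It met the count filter through FT alone, so these p-values add nothing to the counts. DESeq2 gave it no p with 6 libraries.

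Epithelial markers were highest in FT_1 as well. The 7 markers summed to 440.6, 12.8 and 11.9 FPKM in FT and 10.1, 7.85 and 13.9 in WT. KRT5 was the most abundant by mean, through FT_1. CDH1, named after its values were seen, had 36.3, 7.11 and 8.41 in FT and 10.0, 7.83 and 13.9 in WT and made up most of the sum in the other 5 libraries, where the groups overlapped. KRT5, KRT14, KRT8, KRT18 and EPCAM were at 0 in every WT library, and none of the 7 was at 0 in all 6. In FT_2 and FT_3, KRT5 stood at 1.5% and 0.951% of its FT_1 level in CPM and KRT14 at 1.37% and 0.874%, against 0.114% and 0.112% for COL18A1. TP63, a transcription factor of basal epithelium, had 2253, 8 and 0 counts in FT and 16, 4 and 16 in WT. Of the 6 tested markers 0 passed with 6 libraries by edgeR (20.1% of all tested genes were higher), with 4 higher at an unadjusted p under 0.05. Without FT_1, 4 passed as higher (30.6% of all tested genes). In both cases the 4 were KRT5, KRT14, KRT8 and KRT18, which met the count filter through FT alone, so their p adds nothing to the counts. With 6 libraries limma and DESeq2 also passed 0, though DESeq2 gave no p for KRT5, KRT14, KRT8, KRT18 and TP63. Of the mesothelial markers, the most abundant was MSLN, with 199, 44.9 and 46.2 in FT and 2.08, 3.18 and 3.06 in WT, and the 4 analysed summed to 205.9, 45.1 and 46.3 in FT and 2.35, 3.48 and 3.34 in WT. WT1 (0 in every FT library, 0.04, 0.05 and 0.03 in WT) and UPK3B (1.03, 0.10 and 0.09 in FT, 0.20, 0.25 and 0.25 in WT), named after their values were seen, were below WT in FT_2 and FT_3. Their part in the result was not tested.

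**Figure D4:**
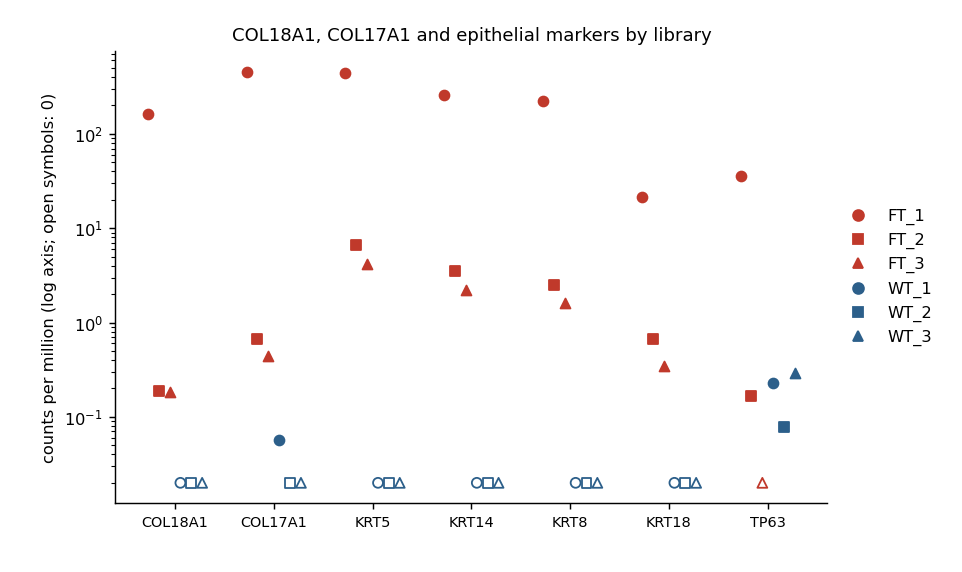
Level in CPM (log axis) of COL18A1, COL17A1 and 5 epithelial marker genes in each library, with open symbols at the lower edge for 0 counts. COL18A1 has 164.5 and COL17A1 452.8 CPM in FT_1 and less than 1 in each of the other libraries, and the 4 keratin genes are at 0 in all WT libraries.

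COL15A1, the other multiplexin, went the opposite way in FT_1. This chain of the zone between basement membrane and fibrils had an FPKM of 13.1, 128 and 137 in FT and 57.4, 54.9 and 55.5 in WT. FT_2 and FT_3 were above all WT libraries and FT_1 was far below them, at 0.0987 of the mean of FT_2 and FT_3. The WT values lay close together, within 1.05-fold. It did not pass with 6 libraries (log2 fold change 0.90, SE 0.77, adjusted p = 0.394) and passed as higher without FT_1 (1.41, SE 0.06, adjusted p = 1.43e-07).

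The short-chain network collagen VIII, which forms a hexagonal lattice in vessels and the cornea, was higher in FT for one chain. COL8A2 had an FPKM of 31.0, 13.8 and 13.6 in FT and 2.5, 2.25 and 2.94 in WT. All FT values were above all WT values, and FT_1 was the highest, at 2.26 times the mean of FT_2 and FT_3. COL8A2 rose (log2 fold change 3.07, SE 0.37, adjusted p = 0.00221), and without FT_1 the log2 fold change was 2.58, SE 0.11, adjusted p = 1.03e-07. COL8A1 had 26.8, 11.6 and 11.4 in FT and 15.2, 10.0 and 15.6 in WT. Its groups overlapped, FT_1 being the highest. By edgeR COL8A1 did not pass with 6 libraries (log2 fold change 0.44, adjusted p = 0.394). Without FT_1 its sign turned and it did not pass either (log2 fold change -0.08, adjusted p = 0.705).

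COL7A1, whose product forms the anchoring fibrils that tie the epidermis to the dermis, was low in all libraries and higher in FT. It had an FPKM of 3.73, 2.53 and 2.77 in FT and 0.55, 0.42 and 0.56 in WT. The groups did not overlap, and FT_1 was the highest. It rose (log2 fold change 2.71, SE 0.20, adjusted p = 7.84e-04), with a log2 fold change of 2.54 and adjusted p = 4.96e-07 without FT_1.

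The 8 chains with a mean FPKM under 1 in both groups lay between 0 and 1.05 FPKM in every library. Of these, COL13A1, a transmembrane chain, had 0, 8 and 11 counts in FT and 113, 54 and 69 in WT, and COL6A6 had 0, 248 and 365 counts in FT and 112, 67 and 51 in WT. COL13A1 was below WT in all FT libraries, whereas FT_1 had no count of COL6A6 and FT_2 and FT_3 exceeded WT. Both are named after their values were seen. COL13A1 had an adjusted p of 0.0514 with 6 libraries (log2 fold change -3.26) and 9.28e-04 without FT_1, and COL6A6 had 0.389 (log2 fold change 1.79) and 2.91e-05. COL13A1 met the count filter through WT alone, so its p-values add nothing to the counts.

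Chains that assemble into one molecule were then compared with each other as ratios of FPKM, which is scaled by length. In 3 of the 6 pairs the ratios of all FT libraries lay on one side of all WT libraries, FT_1 included. The share over ratios of other gene pairs is not given here. Of single tested genes, 21.8% had all FT values above all WT values in FPKM and 36.9% had them below, so groups that lie apart were common. COL8A1 to COL8A2 was 0.865, 0.841 and 0.839 in FT and 6.06, 4.46 and 5.32 in WT. COL8A2 was thus the more abundant chain in each FT library and COL8A1 in each WT library. The FT ratios nearly coincided, although FT_1 had over 2 times the FPKM of FT_2 and FT_3 for both chains.

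COL6A3 to COL6A1 was 0.185, 0.155 and 0.162 in FT and 0.341, 0.309 and 0.330 in WT. The groups were far apart, and FT_1, which differed from FT_2 and FT_3 in the level of both chains, was close to them in the ratio. COL4A1 to COL4A2 was 1.72, 1.90 and 2.02 in FT and 2.88, 2.98 and 3.46 in WT, so COL4A1 was the more abundant chain everywhere and less so in FT. The differences of the log2 ratio, FT minus WT, were -2.63, -0.97 and -0.72 for these 3 pairs with 6 libraries and -2.64, -1.04 and -0.66 without FT_1. Two-sided exact permutation of the group labels gave p = 0.10 for each, the smallest possible with 3 libraries in a group, and an adjusted p of 0.20 over the 6 pairs, so none passed.

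The other 3 pairs overlapped between groups. COL1A1 to COL1A2, which make up the type I trimer, was 0.777, 1.32 and 1.39 in FT and 1.004, 1.06 and 0.958 in WT, with FT_1 below and FT_2 and FT_3 above all WT libraries (exact permutation p = 0.50, adjusted p = 0.60). COL5A1 to COL5A2 was 0.454, 0.634 and 0.642 in FT and 0.528, 0.537 and 0.464 in WT (exact permutation p = 0.40, adjusted p = 0.60). COL6A1 to COL6A2 was 2.38, 1.93 and 1.91 in FT and 1.94, 1.90 and 1.95 in WT, where only FT_1 lay away from the other 5 libraries (exact permutation p = 0.80, adjusted p = 0.80).

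**Figure D5:**
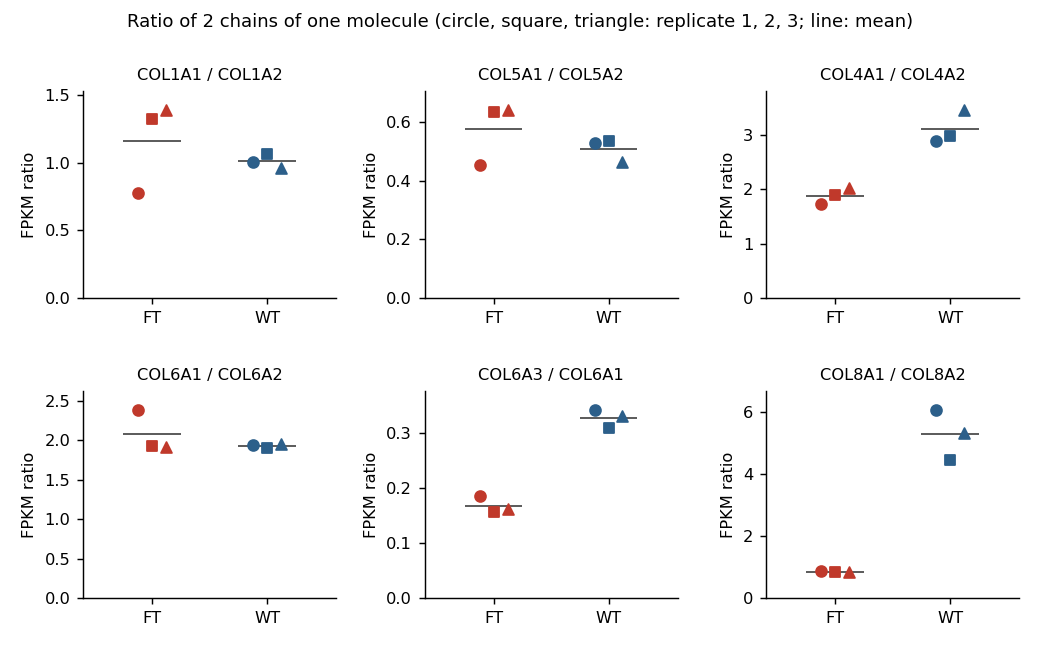
Ratio of the FPKM of 2 chains of one molecule in each library (symbols for replicates 1, 2 and 3, lines for group means, axes starting at 0). COL4A1 to COL4A2, COL6A3 to COL6A1 and COL8A1 to COL8A2 are lower in all FT libraries than in any WT library.

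Several chains that pair in a molecule or a fibril also lie within 500 kb of each other in the genome. Whether other genes lie between them was not examined. By the coordinates of the table, for which the submitters' processing notes name only a mouse build although its gene identifiers are those of cattle, COL4A1 (ENSBTAG identifier ENSBTAG00000012849, chromosome 12, 84863917 to 84995777, minus strand) and COL4A2 (ENSBTAG00000025210, chromosome 12, 85040120 to 85153241, plus strand) stood head to head with 44.3 kb between them, and both rose. COL5A2 (ENSBTAG00000027020, chromosome 2, 7198509 to 7357287, plus strand) and COL3A1 (ENSBTAG00000021466, chromosome 2, 7375289 to 7414912, minus strand) stood tail to tail with 18 kb between them, and of these COL5A2 rose while COL3A1 did not pass. COL6A1 and COL6A2 lay in the same direction on chromosome 1, with COL18A1 372 kb before COL6A1. FT_1 had the lowest FPKM of the 6 libraries for COL6A1 and COL6A2 and the highest for COL18A1. The tested chains were also long, with a median relative length of 2.30 against 1.005 for all tested genes, and across genes, which are not independent replicates, log2 fold changes were higher in longer genes (Spearman's rho 0.183 over 12672 genes). With a trend on length removed, the same 10 chains passed as higher.

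Genes that act on collagen were read from 7 lists with 60 analysed genes, and MIA2, TLL1, MEP1B, BGN, GP6 and LAIR1 were not analysed here. Of the 56 tested, 23 were higher and 3 lower with 6 libraries, where 20.1% and 18.9% of all tested genes were. Of 57 tested without FT_1, 34 were higher and 15 lower, where 30.6% and 31.5% of all tested genes were, so the lower count was near the share of all genes. Among the 34, COLGALT2 met the count filter through FT alone. Among the 15, KERA, MMP9 and MMP13 met it through WT alone, and these genes are named after their values were seen. The same shares apply to each list. Without WT_1 the count was 11 higher and 1 lower, where all genes went from 2714 higher and 2547 lower to 1516 and 1531. Without WT_2 it was 13 higher and 1 lower (all genes 1613 and 1570.0), and without FT_3 21 higher and 1 lower (2151 and 1998). With total counts alone the split was 18 higher and 7 lower. The median log2 fold change was 0.51 (0.46 without FT_1), against 0.03 (-0.02) for all tested genes.

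The list of prolyl and lysyl hydroxylation, a step needed for a stable helix and for crosslinks, holds the hydroxylases with their partners CRTAP and P3H4 and the galactosyltransferases that act on hydroxylysine. It had 7 of 13 tested genes higher and 0 lower by edgeR, with 2 lower at an unadjusted p under 0.05, 2 lower by DESeq2 and 3 by limma. Without FT_1, 9 of 14 were higher and 4 lower, the latter near the 31.5% of all tested genes: P4HA1, P4HA2, P4HB and CRTAP, named after their values were seen. The 9 include COLGALT2, with 0 counts in every WT library, which met the count filter through FT alone. P3H3, a prolyl hydroxylase gene, had an FPKM of 51.4, 51.1 and 47.0 in FT and 35.7, 35.9 and 38.8 in WT, and P3H4 had 81.0, 80.2 and 66.8 in FT and 48.5, 54.2 and 51.3 in WT. FT lay above WT in every library for both, FT_1 included. The log2 fold changes were 0.60 (adjusted p = 0.00260) and 0.72 (adjusted p = 0.00315).

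Folding and export had 2 higher and 3 lower of 10 by edgeR with 6 libraries, the first near the 20.1% of all tested genes, and 2 higher and 5 lower without FT_1. Of the 7 lists it was the only one with a lower gene in edgeR with 6 libraries, which did not hold for DESeq2, limma or edgeR without FT_1. HSPA5, the main chaperone of the endoplasmic reticulum, had 357, 281 and 278 in FT and 556, 588 and 589 in WT, and PPIB, a prolyl isomerase that acts on collagen chains, had 434, 419 and 384 in FT and 597, 622 and 588 in WT. Both were lower in every FT library. Their log2 fold changes were -0.76 (adjusted p = 0.00530) and -0.39 (adjusted p = 0.0133). The collagen chaperone gene FKBP10 had 159.6, 164 and 159 in FT and 132, 137 and 141 in WT and rose (log2 fold change 0.40, adjusted p = 0.0102), with every FT value above WT. MIA3, which loads collagen for export, had 36.2, 32.6 and 33.1 in FT and 30.4, 27.7 and 30 in WT and rose as well (log2 fold change 0.37, adjusted p = 0.0145), though not by limma, which passed 1 gene of the list as higher.

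Propeptide removal, the trimming that lets fibrils form, had 4 of 7 higher by edgeR and DESeq2 and 2 by limma, where ADAMTS14 did not pass. Crosslinking had 3 of 5 higher by each of these tools, with 0 lower in both by edgeR, DESeq2 and limma at either an adjusted or an unadjusted p and 1 lower in each without FT_1. BMP1, the C-proteinase, had 66.7, 55.9 and 55.2 in FT and 36.1, 35.0 and 36.3 in WT (log2 fold change 0.88, adjusted p = 0.00150), and ADAMTS14, an N-proteinase, had 1.03, 0.59 and 0.67 in FT and 0.34, 0.27 and 0.27 in WT (1.51, adjusted p = 0.00971). The lysyl oxidase family genes LOXL1 and LOXL2 had 213, 263 and 243 against 132, 136 and 129 and 273, 162 and 172 against 72.3, 70.5 and 75.2. All 4 genes were above WT in every FT library. LOXL1 had a log2 fold change of 1.02 (adjusted p = 0.00168) and LOXL2 of 1.63 (adjusted p = 0.00261).

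Collagen receptors had 6 of 8 higher by edgeR and DESeq2 and 5 by limma, with 0 lower by any of them at either p. ITGB1, the common beta chain of the collagen-binding integrins, had 512, 576 and 589.7 in FT and 427, 418 and 391.8 in WT (log2 fold change 0.60, adjusted p = 0.00953), and MRC2, which takes up collagen fragments, had 114, 110.0 and 109.8 in FT and 72.1, 65.6 and 81.1 in WT (0.77, adjusted p = 0.00321). Of the 7 tested fibril-binding genes, 1 passed as higher with 6 libraries, FMOD for fibromodulin, and 6 were higher and 1 lower without FT_1. DESeq2 gave 3 higher and 1 lower, and limma gave 0 of either, so FMOD did not pass there. FMOD had 1334, 633 and 669 in FT and 496, 427 and 523 in WT, above WT in every FT library and highest in FT_1 (log2 fold change 1.02, adjusted p = 0.0426, and 0.60 without FT_1). The collagen-cleaving proteases had 0 of 6 higher or lower by edgeR or limma at either p, and 0 by DESeq2, which gave no p for MMP9 and MMP13. Without FT_1, 3 were higher and 3 lower. The 3 lower were MMP1, MMP9 and MMP13, of which MMP9 and MMP13 met the count filter through WT alone. The summed FPKM of the listed proteases was 1350, 6084 and 6241 in FT and 4519, 3895 and 4273 in WT, a sum made up mostly of CTSK, MMP2 and MMP14, with FT_1 below and FT_2 and FT_3 above all WT libraries. MMP9 (46.6, 0 and 0 in FT, 0.38, 0.31 and 0.06 in WT) and MMP13 (14.1, 0 and 0 in FT, 0.47, 0.38 and 0.65 in WT) had the opposite order, with FT_1 above and FT_2 and FT_3 below WT. MMP1 had 84.9, 10.1 and 11.2 in FT and 98.3, 69.5 and 63.6 in WT, with FT_1 within WT and the other FT libraries below it. These proteases are named after their values were seen.

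Markers of the remaining cell types that such cultures could hold are given as levels. The 6 bone markers summed to 402.4, 113 and 124 FPKM in FT and 246.5, 283 and 229 in WT, nearly all of it SPP1. SPP1 had 386, 103 and 113 in FT and 240, 277 and 222 in WT, above WT in FT_1 and below it in FT_2 and FT_3. RUNX2, named after its values were seen, had 14.6, 8.66 and 8.77 in FT and 5.61, 5 and 5.01 in WT, above WT in every FT library. It passed as higher by edgeR (log2 fold change 1.19, adjusted p = 0.00796), as the only 1 of 5 tested bone markers, near the 20.1% of all tested genes. Without FT_1, 2 of the 5 were higher and 1, SPP1, was lower (30.6% and 31.5% of all tested genes). The 4 skeletal muscle markers summed to 5.81, 4.61 and 3.78 in FT and 1.20, 1.35 and 2.05 in WT, with DES the most abundant. The 2 Schwann and neural crest markers, led by S100B, summed to 12.9, 5.82 and 4.29 in FT and 9.14, 9.41 and 9.92 in WT. Leukocyte markers, 3 in number and led by CD14, summed to 4.06, 4.12 and 3.52 in FT and 7.93, 6.65 and 7.77 in WT, and the 4 adipocyte markers, led by FABP4, to 3.43, 6.28 and 7.81 in FT and 143, 131 and 146 in WT. Skeletal muscle sums were above WT in every FT library, most of them being DES (5.74, 4.01 and 3.17 in FT, 0.07, 0 and 0 in WT), while MYF5 (0.03, 0.59 and 0.61 in FT, 1.06, 1.31 and 1.93 in WT) and MYH3 were below WT. Leukocyte and adipocyte sums were below WT in every FT library. The adipocyte difference was that of FABP4 (0.08, 4.67 and 5.95 in FT, 140.3, 128 and 143 in WT), while PLIN1 (1.33, 1.31 and 1.49 in FT, 1.23, 1.27 and 1.26 in WT) was above WT and PPARG (2.02, 0.30 and 0.37 in FT, 1.24, 1.61 and 1.11 in WT) was highest in FT_1. MYF5, MYH3, PLIN1 and PPARG are named after their values were seen, and no marker of any list was at 0 in all 6 libraries. The part of these cell types in the collagen results was not tested. Listed markers not analysed here include IBSP, TIE1, LRRN4, CALB2, MYOD1, MYOG, PAX7, SOX10, PTPRC and CEBPA.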

How the data were processed

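RNA of 6 libraries, 3 FT and 3 WT, was sequenced and each gene's count and FPKM were deposited by the authors, whose processing notes name HISAT2 2.0, StringTie 1.3.0 and Bowtie 0.12.2 and a mouse build, mm8, for a table with cattle gene identifiers. The deposited counts were whole numbers without normalization, and the deposited FPKM were scaled by the authors to gene length and library size and rounded to 2 decimals. How reads shared by overlapping genes were counted is not given in the sources used here.

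Counts were tested with edgeR 4.0.16 (TMM scaling, filterByExpr, quasi-likelihood test) in R 4.3.3. Benjamini-Hochberg adjustment covered all tested genes, and a gene passed at an adjusted p under 0.05. Alternatives were DESeq2 1.42.0, limma 3.58.1 on log2(FPKM + 1) and on log2(FPKM + 0.1) (mean FPKM 0.5 or more), median-ratio and total count scaling, no filter, a length offset, a replicate block, leaving out each library, and the threshold of the methods. Ratios were compared by exact permutation. Python 3.11.15 with pandas 2.3.3, scipy 1.17.1 and matplotlib 3.10.9 made summaries and plots. Steps were tested on simulated data. Floors of 3 counts cover counting error only.

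All chains with a mean FPKM of at least 1 in a group were described, the others by range. For the lists of genes acting on collagen, the 2 genes with the smallest p in each direction among those that passed were named, and for marker lists the most abundant gene. Members and lists were chosen with earlier results of these data known. No protein or promoter sequences of cattle were at hand, so none are given.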

Additional observations from a re-analysis of the deposited data

How the results depend on the processing

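Of the 10 chains higher in FT, 9 passed under every alternative run on single chains (2 further scalings, no filter, DESeq2, 2 limma settings, a length offset, a replicate block and each library left out), and COL17A1 did not pass under 7 of them. Leaving out 1 library gave 9 (without any 1 of the WT libraries) to 19 (without FT_1) chains higher and 0 to 3 lower, 11 to 34 collagen-acting genes higher and 1 to 15 lower, and 1516 to 4215 of all genes higher and 1531 to 4337 lower. Chains lower in FT were 1 with total counts, 2 with DESeq2 and 1 with the threshold of the methods (unadjusted p under 0.05 and log2 fold change beyond 1). Collagen-acting genes lower in FT were 7 with total counts, 7 with DESeq2, 7 with limma on log2(FPKM + 1), 7 on log2(FPKM + 0.1), 1 with the block and 1 with the threshold of the methods, which gave 10 higher. That threshold gave 8 chains higher, with COL5A1 and COL5A2 under its fold limit, and 1378 genes higher and 1208 lower over the whole table. The replicate block gave 11 chains higher, adding COL18A1, although same-number libraries did not pair (r = -0.001, -0.020 and 0.018). The log2 fold change of COL1A1 turned to -0.13 with total counts, -0.29 and -0.29 with limma (+ 1 and + 0.1), -0.14 with the length offset and -0.12 with the block, and ranged from -0.21 (without FT_3) to 0.39 (without FT_1) with 1 library left out. COL14A1 turned to -0.020 with total counts, -0.0279 and -0.0281 with limma and -0.0738 with the length offset, COL6A2 to -0.0254 and -0.0258 with limma, and COL27A1 to -0.00296 with the length offset. With 1 library left out, COL5A3 ranged from -0.56 (without FT_3) to 0.38 (without FT_1), COL8A1 from -0.0755 (without FT_1) to 0.64, and the log2 ratio of COL6A1 to COL6A2 from -0.00836 (without FT_1) to 0.15. The cause was not tested. With 3 libraries in a group, no ratio could pass an exact permutation test. The count filter left 5 chains with at most 35 counts in any library out of the main edgeR test. Without the filter edgeR tested all 30 chains, and none of these 5 passed.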
